A study of Rattus norvegicus with 8 samples.

Results

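The genes described here are 43 components of the machinery that releases and recycles synaptic vesicles, measured in the dentate gyrus (DG) of female rats after status epilepticus (SE). They were chosen by name: every non-control spot whose gene name on the array equals 1 of the 43 symbols was taken, which gave 95 spots and 59 probes of the 43379 spots and 35199 gene names on the array. All rats were adult ovariectomized (OVX) Sprague-Dawley females, and all underwent SE after intraperitoneal kainic acid, which per the labels was given at 16 mg/kg, with SE ended after 5 h by pentobarbital. The 4 COS rats (castrated, oil-injected, SE) received oil, and the 4 CES rats (castrated, E2-replaced, SE) received 4 doses of 2 μg of estradiol (E2) at 24 h intervals, of which the labels place 2 before and 2 after SE, starting 1 week after ovariectomy. The study's methods give a lower kainic acid dose, all injections before SE and diazepam to end it, and they place tissue collection at different times in different paragraphs, while the labels give no time. The files do not settle which holds, so the interval between seizures and the levels below is not known. Rats without SE were not analysed here, so no value below separates an effect of SE from the level in a rat without seizures.

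Neurotransmitter is released when a vesicle docked at the active zone fuses with the plasma membrane. SNARE proteins on the vesicle and on the membrane zip together to drive fusion, synaptotagmins sense the calcium that triggers it, and scaffold and priming proteins of the active zone make vesicles ready. The vesicle membrane is then taken back by clathrin, its adaptor AP-2, amphiphysin, dynamin and synaptojanin. In the DG this machinery serves the mossy fibers of granule cells, the inputs they receive and local interneurons. A transcript measured here comes mainly from cell bodies in the tissue taken, rather than from the terminals of distant neurons. Markers of neighbouring tissue are given below.

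Each of 4 2-colour arrays, all on 1 slide, carried a pair of rats of the same group, with replicates 1 and 3 labeled with Cy3 and replicates 2 and 4 with Cy5. Valid spots, those with a foreground at least 2 times the local background, numbered 32381 to 38553 in COS and 30690 to 35352 in CES. Levels below are log2 values of the background-subtracted intensity over the median of the valid spots of the same channel, and a difference is the CES mean minus the COS mean on that log2 scale. Probes differ in brightness, so levels are not compared between genes. The median difference over all 21332 quantified genes was -0.25 on this scale, and the differences of called members are therefore also given relative to that median. Centring each rat on its median over quantified genes gave the centred calls named below. It moved every difference up by 0.37, more than the 0.25 that separates the median of all genes from 0, so that on the centred scale the median difference of all genes was 0.12.

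Of the 43 members, 42 were quantified in all 8 rats. The exception was Syn3 (synapsin III), which was not well above background in any rat. With limma and Benjamini-Hochberg adjustment over all genes, 4 members were higher in CES (Amph, Syn2, Syt1 and Syt3), 6 were lower (Sv2c, Syt4, Unc13b, Dnm2, Rims2 and Cltb) and 32 were not called. Over all genes, 5.8% were called higher and 28.3% lower. The median difference of the members was 0.04, which is 0.29 relative to all genes, and 33 of the 42 members lay above the median of all genes. After centring, 10 members were higher, namely Amph, Syn2, Syt1, Syt3, Syn1, Synj1, Dnm1, Vamp2, Rab3b and Rab3a, and 2 were lower, Sv2c and Syt4, beside 15.0% and 9.26% of all genes. Thus Amph, Syn2, Syt1, Syt3, Sv2c and Syt4 were called under both scalings, while the calls of Dnm2, Unc13b, Rims2 and Cltb were lost on centring, on a scale where the median of all genes lies at 0.12.

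**Figure D1:**
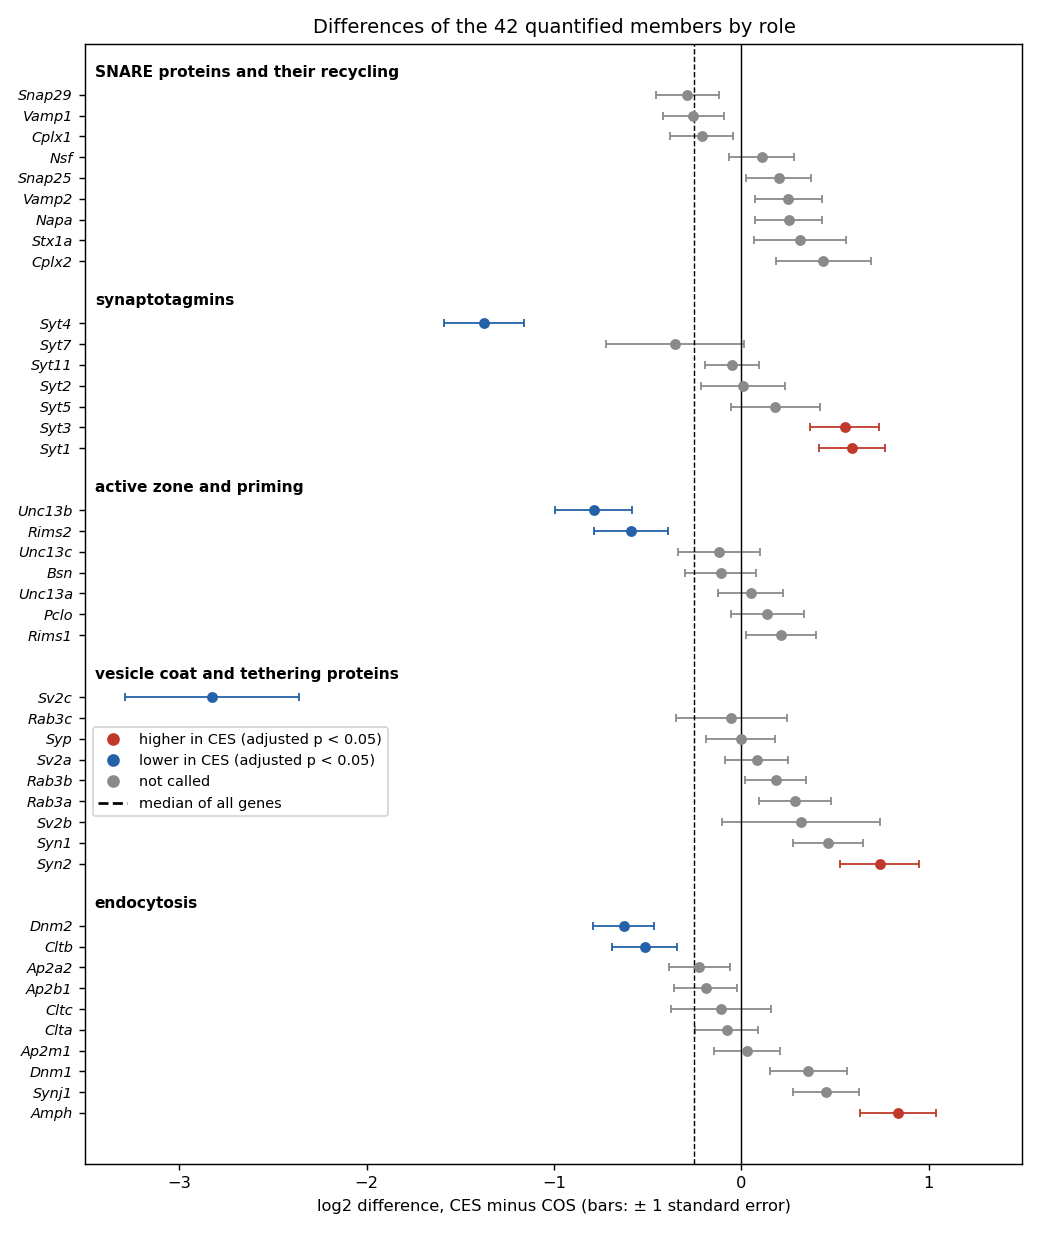
Difference of each quantified member between CES and COS (x axis, log2, bars ± 1 standard error, 4 rats per group), grouped by role on the y axis; red and blue mark members called higher or lower by limma and grey those not called. The dashed line is the median of all genes at -0.25, and Sv2c at -2.82 and Syt4 at -1.37 lie farthest below it. The group labeled vesicle coat and tethering holds synapsins, Rab3 proteins, SV2 proteins and Syp, and no clathrin or AP-2 gene.

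The calls depended on single rats. Without COS replicate 1, COS replicate 3, COS replicate 4 or CES replicate 1, no member was called higher, and without CES replicate 2 there were 8. Between 2 and 6 members were called lower when 1 rat was left out, the lowest number being reached without COS replicate 3 or CES replicate 1. The number of all genes called moved as well, from 257 to 1855 higher and from 914 to 7012 lower. Sv2c and Syt4 were called lower in each of these 8 fits.

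Among the synaptotagmins, Syt4 fell and Syt1 and Syt3 rose, and 4 of the 7 members were not called. Syt4, whose transcript is known to be induced by depolarization and seizures, had log2 levels of 5.68, 5.98, 5.86 and 5.28 in COS replicates 1 to 4 and 4.12, 4.63, 4.50 and 4.07 in CES replicates 1 to 4. Every CES rat lay below every COS rat. The difference was -1.37 (standard error 0.21, adjusted p = 0.0041 by limma), or 2.59-fold lower in CES and -1.12 relative to all genes, and after centring the adjusted p was 0.018. Members whose groups did not overlap in this way numbered 4 lower (Syt4, Sv2c, Dnm2 and Cltb) and 0 higher, beside 19.8% and 1.61% of all genes. All 3 Syt4 probes, which lie on the minus strand of chromosome 18 in rn4, were lower in CES without overlap, by -1.94, -1.65 and -1.17 (adjusted p = 0.0035, 0.0032 and 0.0053 by limma over probes). On the same probe scale 5.48% of all probes were called higher and 29.0% lower.

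Syt1 encodes the main calcium sensor of fast release. Its log2 levels were 1.51, 1.42, 1.82 and 0.94 in COS and 2.37, 1.71, 2.13 and 1.85 in CES. The groups overlapped through CES replicate 2, which lay below COS replicate 3. The difference was 0.59 (standard error 0.17, adjusted p = 0.027 by limma), 1.51-fold higher and 0.84 relative to all genes. That value is an average over 12 spots, of which 10 repeat 1 probe designed on a partial mRNA called splice variant 4, and the remaining 2 spots are probes of the reference transcript. The splice variant 4 probe and the first reference probe share a run of 32 bases, shown in lower case, and capitals mark the bases they do not share.
Syt1 splice variant 4 probe: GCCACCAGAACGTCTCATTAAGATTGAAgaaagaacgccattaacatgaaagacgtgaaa
Syt1 reference transcript probe: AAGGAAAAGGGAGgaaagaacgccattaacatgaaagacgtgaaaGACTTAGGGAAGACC
The splice variant 4 probe was higher in CES by 0.68 (standard error 0.18, adjusted p = 0.018), with CES rats between 1.78 and 2.37 and COS rats between 0.84 and 1.77, without overlap. The reference probe printed above, at chr7:47389965-47390024 on the minus strand of rn4, differed by 0.09 (standard error 0.20, adjusted p = 0.76). The second reference probe, at chr7:47243495-47243554, differed by 0.27 (standard error 0.19, adjusted p = 0.28). With every probe weighted equally Syt1 differed by 0.33 (adjusted p = 0.16) and with the brightest probe alone by 0.09 (adjusted p = 0.76), so the call of Syt1 rests on the repeated probe. Whether the probes of Syt1 differ from each other in their response was not tested.

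Syt3, a synaptotagmin with high calcium affinity, had levels of 2.03, 2.03, 2.39 and 1.80 in COS and 2.81, 2.09, 2.92 and 2.64 in CES. CES replicate 2 lay among the COS rats and the other 3 CES rats lay above all of them. The difference was 0.55 (standard error 0.18, adjusted p = 0.042 by limma), or 0.81 relative to all genes, and with the replicate number as a block Syt3 was no longer called, which left 3 members higher and 6 lower. The remaining members of the family were Syt5 at 0.18, Syt2, a fast calcium sensor like Syt1, at 0.01, Syt11 at -0.05 and Syt7, the sensor of slow and asynchronous release, at -0.36, with adjusted p between 0.48 and 0.98. Syt7 was well above background in 2 of 4 rats of each group.

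**Figure D2:**
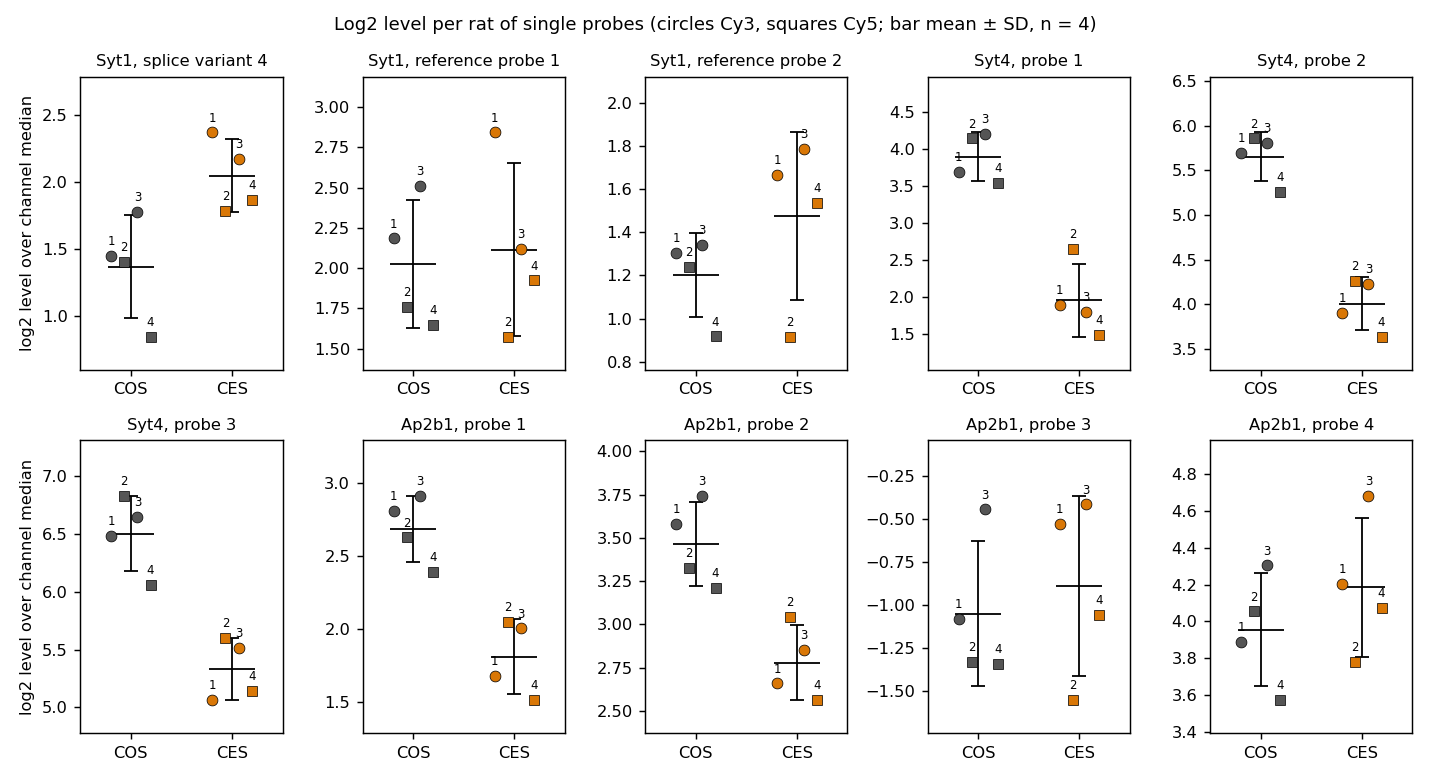
Log2 level over the channel median (y axis, a separate scale for each panel) of single probes of Syt1, Syt4 and Ap2b1 in the 4 COS and 4 CES rats (x axis), numbered by replicate; circles are Cy3, squares Cy5, and bars give the mean ± SD. The 3 Syt4 probes are lower in every CES rat, the Syt1 splice variant 4 probe is higher in every CES rat, and Ap2b1 has 2 probes without overlap and 2 with overlap.

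The vesicle proteins held the member with the largest difference. Sv2c, 1 of 3 SV2 glycoproteins of the vesicle membrane, had levels of 0.66, 0.88, 0.91 and 0.11 in COS and -2.21, -1.10, -1.70 and -3.72 in CES. The groups did not overlap. The difference was -2.82 (standard error 0.47, adjusted p = 0.0043 by limma; adjusted p = 0.024 after centring), or -2.57 relative to all genes. The spot was well above background in all 4 COS rats and, of the CES rats, only in CES replicate 2, so the size of the fall is uncertain. Its relatives did not pass the test: Sv2a, the most widespread SV2 protein and the binding site of levetiracetam, differed by 0.08 and Sv2b by 0.32, with a standard error of 0.42.

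Syn2 (synapsin II), which tethers vesicles in the reserve pool, rose. Its levels were 3.20, 3.13, 3.35 and 2.50 in COS and 4.02, 3.10, 4.27 and 3.75 in CES. CES replicate 2 lay within the range of COS and the other 3 CES rats above it. The difference was 0.74 (standard error 0.21, adjusted p = 0.025 by limma), 1.67-fold higher and 0.99 relative to all genes. Syn1 (synapsin I) differed by 0.46 and was called only after centring (adjusted p = 0.079, and 0.023 after centring). The same held for Rab3a, the vesicle GTPase that binds RIM proteins, at 0.29 (adjusted p = 0.27, and 0.049 after centring) and for Rab3b at 0.18 (adjusted p = 0.41, and 0.036 after centring). Rab3c, at -0.05, and Syp (synaptophysin), an abundant vesicle membrane protein, at -0.0033, were not called under either scaling.

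**Figure D3:**
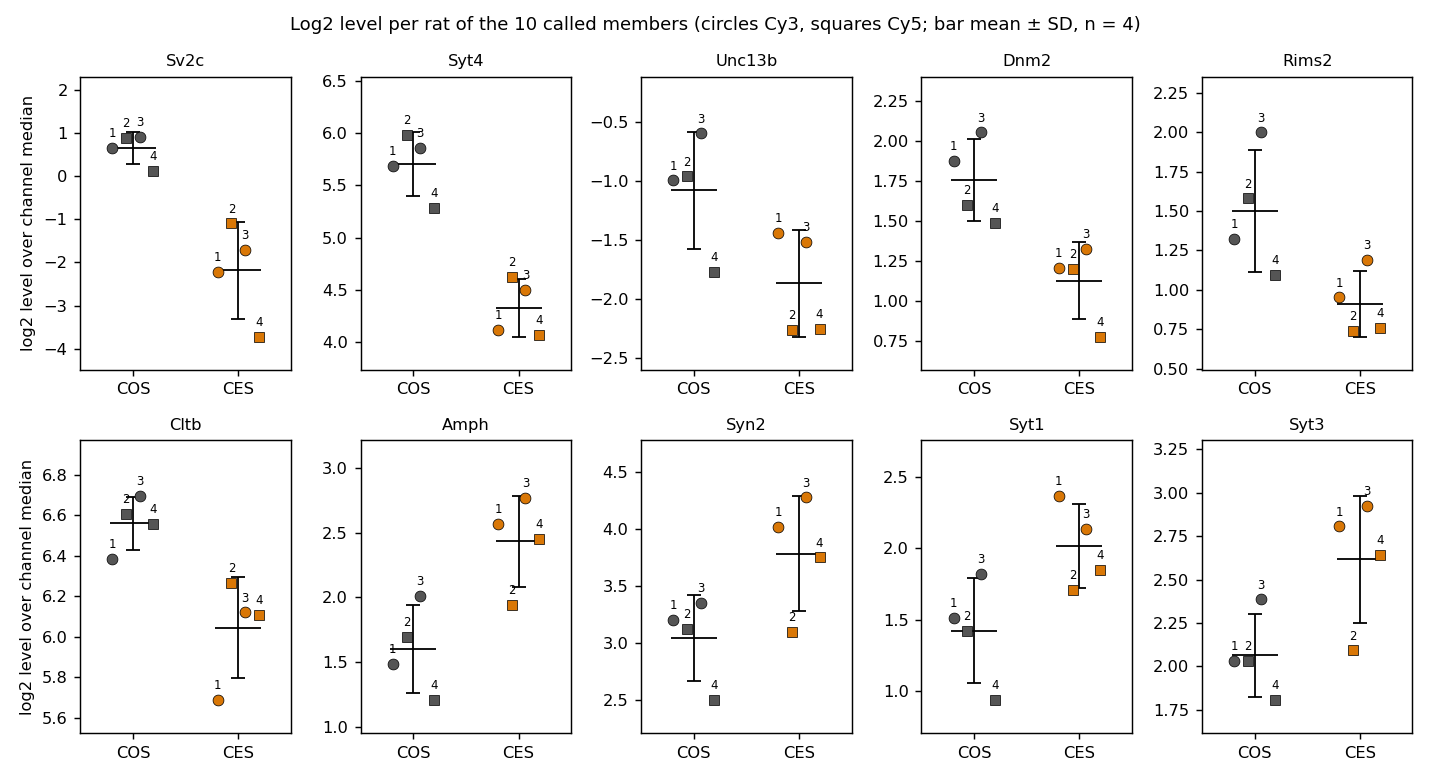
Log2 level over the channel median (y axis, a separate scale for each panel) of the 10 members called by limma in the 4 COS and 4 CES rats (x axis), numbered by replicate; circles are Cy3, squares Cy5, and bars give the mean ± SD. Sv2c, Syt4, Dnm2 and Cltb do not overlap, and in Amph, Syn2, Syt1 and Syt3 the lowest CES rat is replicate 2.

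Of the SNARE proteins and the factors that act on them, 0 of 9 were called. The differences ran from -0.29 for Snap29 to 0.44 for Cplx2. Snap25 and Stx1a (syntaxin 1A), the neuronal SNAREs of the plasma membrane, differed by 0.20 (standard error 0.17, adjusted p = 0.40) and 0.31 (standard error 0.24, adjusted p = 0.35). Vamp2 (synaptobrevin 2), their partner on the vesicle, differed by 0.25 (adjusted p = 0.30) and was the only member of the group called after centring, as higher (adjusted p = 0.047). Its brighter probe differed by 0.12 and was not called after centring (adjusted p = 0.066 by limma over probes). The other quantified probe of Vamp2 differed by 0.41 and was called after centring (adjusted p = 0.043). Vamp1 differed by -0.26. The complexins, which clamp and promote fusion, differed by -0.21 for Cplx1 and by 0.44 for Cplx2 (standard error 0.25). Nsf, the ATPase that takes SNARE complexes apart, differed by 0.11 and its adaptor Napa (alpha-SNAP) by 0.25.

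In the active zone group, 2 of 7 members fell and 0 rose, and after centring 0 were called. The share that fell, 28.6%, is close to the 28.3% of all genes called lower. Unc13b (Munc13-2), a priming factor, had levels of -0.99, -0.96, -0.59 and -1.76 in COS and -1.44, -2.26, -1.51 and -2.25 in CES. COS replicate 4 lay within the range of CES. The difference was -0.79 (standard error 0.20, adjusted p = 0.017 by limma, and 0.17 after centring), or -0.53 relative to all genes, and the spot was well above background in 3 COS rats and 2 CES rats. Rims2, a scaffold that links vesicles to calcium channels, had levels of 1.32, 1.58, 2.00 and 1.09 in COS and 0.95, 0.74, 1.19 and 0.76 in CES, so that COS replicate 4 lay below CES replicate 3. The difference was -0.59 (standard error 0.20, adjusted p = 0.044 by limma, and 0.38 after centring), or -0.33 relative to all genes. Rims1 at 0.21, the priming factors Unc13a at 0.05 and Unc13c at -0.12, and the large scaffolds Pclo (piccolo) at 0.14 and Bsn (bassoon) at -0.11 were not called.

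Among the genes of endocytosis, Amph rose, Dnm2 and Cltb fell, and 7 of 10 were not called. Amph (amphiphysin), which binds curved membrane and recruits dynamin, had levels of 1.49, 1.69, 2.01 and 1.20 in COS and 2.57, 1.94, 2.77 and 2.45 in CES. CES replicate 2 lay just below COS replicate 3, and the other CES rats lay above every COS rat. The difference was 0.84 (standard error 0.20, adjusted p = 0.013 by limma), 1.78-fold higher and 1.09 relative to all genes. Synj1 (synaptojanin 1), the phosphatase that uncoats vesicles, differed by 0.45 (adjusted p = 0.075, and 0.024 after centring). Its brighter probe differed by 0.48 (adjusted p = 0.061 by limma over probes, and 0.023 after centring). The other probe differed by -0.14 (adjusted p = 0.61, and 0.49 after centring), so the centred call of Synj1 rests on the brighter probe.

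The dynamins had differences of opposite sign. Dnm2, the ubiquitous form, had levels of 1.88, 1.60, 2.05 and 1.49 in COS and 1.21, 1.20, 1.33 and 0.77 in CES, without overlap, and differed by -0.63 (standard error 0.16, adjusted p = 0.017 by limma, and 0.16 after centring), or -0.37 relative to all genes. Dnm1, the neuronal form, differed by 0.36 (standard error 0.20, adjusted p = 0.20, and 0.038 after centring). The difference between the 2 genes was not tested. Of the clathrin chains, Cltb (light chain B) had levels of 6.39, 6.61, 6.70 and 6.56 in COS and 5.69, 6.27, 6.12 and 6.11 in CES, without overlap. Its difference was -0.52 (standard error 0.17, adjusted p = 0.042 by limma), or -0.26 relative to all genes, and it was not called after centring (adjusted p = 0.42). Clta (light chain A) at -0.08 and Cltc (heavy chain) at -0.11 were not called.

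The AP-2 adaptor joins clathrin to vesicle cargo, and its genes Ap2a2 at -0.22, Ap2b1 at -0.19 and Ap2m1 at 0.03 were not called. Of the 2 probes of Ap2a2, the brighter differed by -0.09 (adjusted p = 0.71 by limma over probes). The other differed by -0.64 (adjusted p = 0.042, and 0.36 after centring). The 4 probes of Ap2b1 gave unlike values. Along the transcript, on the plus strand of chromosome 10 in rn4, the differences were -0.88 (adjusted p = 0.0078 by limma over probes), -0.69 (adjusted p = 0.018), 0.16 (adjusted p = 0.55) and 0.23 (adjusted p = 0.40). For the first probe COS rats lay between 2.39 and 2.91 and CES rats between 1.51 and 2.05. For the last, the brightest of the 4, COS rats lay between 3.57 and 4.30 and CES rats between 3.78 and 4.68. The gene value averages these probes, and no difference between them was tested. A probe of Vamp2 and a probe of Sv2b were not well above background in any rat and were not quantified.

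Restricting the fit to spots well above background in all 8 rats left 38 members, without Sv2c, Unc13b, Syt7 and Rims1 among the 42. In it 12 members were higher and 1, Syt4, was lower, beside 16.2% and 6.43% of all genes in that fit. The 12 were Amph, Cplx2, Dnm1, Napa, Rab3a, Stx1a, Syn1, Syn2, Synj1, Syt1, Syt3 and Vamp2. After centring, the groups did not overlap for 12 members that were higher and 3 that were lower, beside 17.3% and 11.9% of all genes.

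Each rat was then described by the median over members of its level relative to all genes, set to the COS mean of each gene. On this scale the median over all genes lay between -0.03 and 0.04 in COS and between -0.03 and 0.20 in CES, so that 0 is not the level of no change. Over the 42 members the COS rats lay between -0.15 and 0.18 and the CES rats between 0.24 and 0.50, without overlap. The vesicle proteins, namely the synapsins, Rab3 proteins, SV2 proteins and Syp, were also without overlap, at -0.16 to 0.19 in COS and 0.27 to 0.75 in CES. The synaptotagmins did not overlap either, at -0.13 to 0.22 and 0.24 to 0.92. These ranges do not take off the median of all genes in each rat. In CES replicate 3 the members lay at 0.34 and all genes at 0.20, and in COS replicate 2 at 0.18 and -0.02. Counted from all genes of the same rat, CES replicate 3 therefore lay below COS replicate 2, and the members overlapped. The same held for the synaptotagmins, at 0.24 in CES replicate 3 and 0.22 in COS replicate 2. The SNARE group overlapped through CES replicate 2, at 0.06, and so did the active zone group, in which CES replicate 2 was at -0.08. The endocytosis group overlapped through CES replicate 1, at 0.09. CES replicate 2 was the lowest CES rat for 23 of the 42 members (54.8%) and for 46.2% of all genes.

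**Figure D4:**
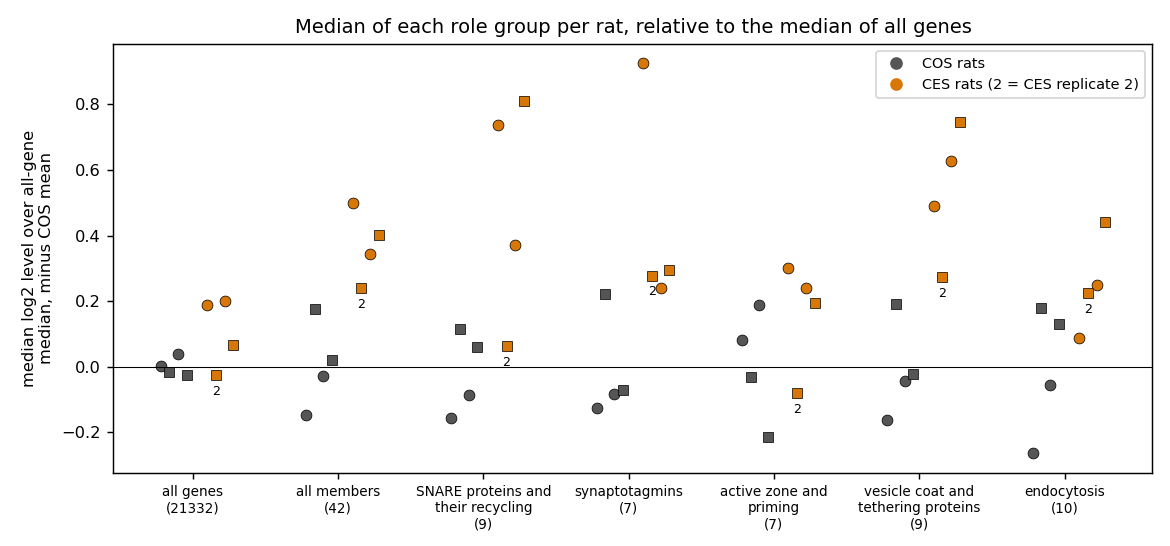
Median over all genes, over all members and over each role group (x axis, number of genes in brackets) of the log2 level relative to all genes, after subtracting the COS mean of each gene (y axis), with 1 point per rat; circles are Cy3 and squares Cy5. Over all 42 members the CES rats lie at 0.24 to 0.50, above all COS rats, while over all genes the CES rats lie at -0.03 to 0.20, and CES replicate 2 is labeled. Counted from all genes of the same rat, the members of CES replicate 3 lie below those of COS replicate 2. The group labeled vesicle coat and tethering holds synapsins, Rab3 proteins, SV2 proteins and Syp, and no clathrin or AP-2 gene.

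Other genes of the pathway, which are not members, were counted in 3 lists. Their counts stand beside 5.8% of all genes called higher and 28.3% called lower. Of 40 genes of release 35 were quantified, with 2 higher and 9 lower. The rises were Syt17 (1.10, adjusted p = 0.0063) and Cadps, a factor of dense-core vesicle release (0.54, adjusted p = 0.049), and the largest falls were, each relative to all genes, Syt10 (-1.04), Snap23 (-0.92), the SNAP-25 relative of non-neuronal cells, and Ppfia2, a liprin (-0.75). Of 30 genes of the vesicle membrane and its filling 29 were quantified, with 4 higher and 4 lower. Svop (1.34), Slc17a8 (0.97) and Slc17a7 (0.70), the last being the vesicular glutamate transporter VGLUT1, had the largest rises, while Slc18a3, the vesicular acetylcholine transporter (-2.87), Slc17a6, VGLUT2 (-1.60), and Sypl1 (-0.77) had the largest falls. Slc17a8 was well above background in 0 COS rats and 2 CES rats, and Syt10, of the release list, in 3 COS rats and 2 CES rats. Of 25 further genes of endocytosis 23 were quantified, with 2 higher, Fcho1 (0.90) and Dnajc6 (0.81), the auxilin that removes clathrin, and 5 lower, led by Picalm (-1.73), Itsn2 (-0.85) and Ap2a1 (-0.61). After centring, the 3 lists held 9, 6 and 7 genes called higher and 3, 2 and 1 called lower, beside 15.0% and 9.26% of all genes. Adjusted p-values of the genes named before centring ran from 0.0039 to 0.049 by limma.

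Markers of other cell types differed between the groups as well, and are given as calls and as the log2 of their summed level after centring. Over all genes 5.8% were called higher and 28.3% lower, and after centring 15.0% and 9.26%. Of 8 markers of microglia and macrophages 4 were lower in CES (Cd14, Cd68, Itgam and Csf1r), P2ry12 was higher, and Aif1, Cx3cr1 and Ptprc were not called. Their sum was 5.67 to 6.05 in COS and 4.07 to 5.13 in CES, but Cd14, which differed by -5.05, sets it: without Cd14, left out after its values were seen, the sums were 4.21 to 4.53 and 3.98 to 4.34 and overlapped. Of 9 quantified interneuron markers 3 were lower, Npy (-1.84), Sst (-1.56) and Vip (-1.06), and Gad1, Gad2, Slc32a1, Pvalb, Cck and Erbb4 were not called, with sums of 7.68 to 8.51 and 7.19 to 8.22. Of 8 astrocyte markers 3 were higher, Gja1 (1.27), Aldh1l1 (1.23) and Aldoc (0.92), and S100b was lower, with sums of 6.59 to 7.32 and 7.26 to 7.95. Of 8 markers of CA pyramidal and mossy cells 3 were higher, Pou3f1 (2.23), Fibcd1 and Wfs1, and Spink8 was lower, with sums of 2.99 to 3.61 and 3.42 to 4.48. Fibcd1 was well above background in 0 COS rats and 2 CES rats, and Spink8 in 3 COS rats and 1 CES rat. Of 9 general neuronal markers Stmn2 was higher and Nefl lower, and the sums were 7.88 to 8.45 in COS and 8.53 to 9.17 in CES, without overlap. Of 6 quantified granule cell markers Neurod1 (1.16) and Neurod2 (1.11) were higher and Dsp (-1.24) and Tdo2 (-0.57) lower. Calb1 (-0.28) and Pdzd2 (-0.06) were not called, and the median difference of the list was -0.17. The sums were 3.85 to 4.22 and 4.72 to 5.55. Neurod2, the brightest of the 6, with means of 4.17 in COS and 5.28 in CES before centring, weighs most in them. Tdo2 and Prox1 were not well above background in any rat, and Dsp was so in 3 COS rats and 2 CES rats. Of 6 thalamic markers, a list that includes Slc17a6, 3 were lower, with sums of 3.56 to 3.88 and 2.37 to 3.53, and of 5 quantified endothelial markers 4 were lower, with sums of 4.53 to 4.90 and 3.78 to 4.91. Of the 8 oligodendrocyte and 5 quantified choroid plexus markers 0 were called, and their sums overlapped. The choroid plexus sums spread widely between rats, from 3.13 to 8.42 in COS and from 3.19 to 7.30 in CES. How much neighbouring tissue each sample held was not tested. After centring, the calls higher and lower were 5 and 0 for neuronal, 2 and 0 for granule cell, 3 and 2 for interneuron, 4 and 0 for CA pyramidal and mossy cell, 3 and 0 for astrocyte, 1 and 3 for microglial and 0 and 2 for thalamic markers, with 0 in the other lists. The part of these shifts in the members' differences was not tested, and fewer cells of a type and less RNA per cell cannot be told apart in such samples.

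Promoters, windows of 300 bases that lie mostly upstream of the gene start, were found for 38 members in RefSeq (GRCr8) and searched on both strands for 4 motifs, none of which contains the letters of another. The Egr motif GCGNGGGCG was present in 9 members (23.7%), beside 4.98% of 33469 promoters of this length, and the cyclic AMP response element TGACGTCA in 5 (13.2%), beside 1.83%. The 5 were Ap2b1, Cltb, Napa, Syn1 and Vamp1, of which only Cltb was called, as lower in CES. All promoters served for comparison, unmatched for base composition or expression, and no enrichment was tested. The AP-1 motif TGANTCA was present in 1, Syp (7.33% of all promoters), and the consensus palindrome of the estrogen response element in 0 (0.0269% of all promoters). Members with the Egr motif were Cplx1, Nsf, Snap29, Syn1, Syn2, Syp, Syt1, Unc13a and Vamp2, of which Syn2 and Syt1 were called higher in CES. Their promoters are shown because limma called both genes higher, although the call of Syt1 rests on its repeated splice variant 4 probe, and the motif is in capitals. That of Syn2 lies at chr4:149858669-149858968 on the plus strand and that of Syt1 at chr7:46244164-46244463 on the minus strand of GRCr8.
Syn2 promoter: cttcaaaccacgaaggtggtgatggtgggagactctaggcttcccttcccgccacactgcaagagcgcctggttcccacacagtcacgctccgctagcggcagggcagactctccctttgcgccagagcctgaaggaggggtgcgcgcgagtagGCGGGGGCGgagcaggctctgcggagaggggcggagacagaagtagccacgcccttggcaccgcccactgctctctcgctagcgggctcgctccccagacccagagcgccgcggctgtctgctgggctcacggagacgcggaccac
Syt1 promoter: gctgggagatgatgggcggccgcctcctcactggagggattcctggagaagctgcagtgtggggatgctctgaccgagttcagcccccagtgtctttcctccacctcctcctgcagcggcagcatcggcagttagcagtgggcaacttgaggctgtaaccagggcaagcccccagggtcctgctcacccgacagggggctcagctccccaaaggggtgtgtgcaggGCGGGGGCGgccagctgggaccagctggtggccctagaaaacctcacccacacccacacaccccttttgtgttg
A match of letters is a description and says nothing on whether a factor binds there.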

How the data were processed

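Total RNA from the DG of 4 COS and 4 CES rats was measured on 4 arrays, with the group, number and dye of each rat read from the labels. As deposited, the scanner files, extracted by Agilent Feature Extraction 10.7.3.1 per the labels, hold the mean, median and background intensity of each spot, not normalized by the authors, and a processed intensity. The deposited table of log2 values holds, up to a constant per channel, the log2 of each spot's median signal after background subtraction, with a median of 0 in each column. Of the 59 member probes 55 had an accession in RefSeq, all under the same symbol, and probe positions are those of rn4.

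Spots with a foreground of 2 or more times the local background were valid, 27642 spots were valid in all 8 rats, and no spot was saturated. Mean signals less background were scaled to the channel's median valid spot, averaged per gene over those common spots, and log2-transformed. The groups were tested with limma 3.58.1 under R 4.3.3 (two-sided, dye as a fixed term, array as a random block with statmod 1.5.0, Benjamini-Hochberg adjustment over 21332 genes or 25698 probes, threshold 0.05). Every array held rats of 1 group, so an effect of the arrays cannot be told apart from the group difference. The fitted correlation between rats of an array was -0.0064, and the same members were called without the block. The median standard error of a difference was 0.20 over all genes, and the number of arrays limits the precision. Tested on simulated data for this comparison with 200 of 21332 genes changed, the fit recovered 69% of changes of 1 and 100% of changes of 2 on the log2 scale, with 10 false calls among 179. The simulated noise was independent between genes and held no effect of the array and no shift shared by the genes of a rat. In the data 1238 genes were called higher and 6038 lower, and the calls depended on single rats. The simulated rates therefore do not give the share of false calls in the data. Python 3.11.15, numpy 2.4.6, pandas 2.3.3 and matplotlib 3.10.9 were also used.

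Rats of equal replicate number share a dye. Their deviations from the group means correlated at 0.21 to 0.34. For each COS rat the highest correlation with a CES rat of another number was 0.21 to 0.44, so equal numbers did not stand out. Once the mean of each group and dye was removed, the values were -0.06 and -0.04. That step leaves the rats of a group and dye as mirror images, so these values cannot decide on a pairing beyond the dye. Alternatives covered background correction, signal, normalization, scaling, spot filters, blocks, dye, probe summary, the methods' t-test, each rat left out in turn, and the log2 table as deposited. Weighting every probe equally, and the alternatives for probes and for other pathway genes, were chosen after seeing the data. The members and lists were chosen with earlier results of these data known. Values in every rat were planned for called members without overlap and for members with opposite probe calls. Those of the other called members and the probes of Syt1 and Ap2b1 were added after their values were seen. So were the probe differences of Ap2a2, Synj1 and Vamp2. For other pathway genes the 3 largest called differences in each direction are named per list.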

Additional observations from a re-analysis of the deposited data

Results flagged for a closer look

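In 3 of 84 groups of 4 rats, 1 rat stood apart from the others by the Dixon criterion, which chance alone meets in about 5 of 100 groups. Rab3a had a log2 level of 5.14 in COS replicate 4, below the other COS rats at 5.64 to 5.72. Rab3b had 2.83 in CES replicate 3, above the other CES rats at 2.32 to 2.40. Dnm1 had 6.90 in COS replicate 2, above the other COS rats at 6.12 to 6.23. None of the 3 genes was called by limma as scaled in the main comparison, and all 3 were called higher after centring each rat.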

How the results depend on the processing

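Given as higher and lower in CES, limma called 4 and 6 members, 1238 and 6038 of all genes, 8 and 18 other pathway genes and 4 and 11 member probes. Normexp with an offset of 50 gave 0 and 1 members, 125 and 461 genes, 0 and 2 pathway genes and 0 and 3 probes. The processed signal gave 2 members, 4 pathway genes and 2 probes higher. Loess with Aquantile gave 3970 genes and 7 probes lower, and quantile normalization 7 members and 8 probes higher. Centring each rat gave 10 and 2 members, 3201 and 1976 genes, 22 and 6 pathway genes and 10 and 5 probes, and a median member difference of 0.41. Taking the channel median over spots that all rats share gave 10 and 2 members, 3348 and 1718 genes, 23 and 5 pathway genes, 11 and 5 probes and a median of 0.44. The deposited log2 table gave 10 and 1 members, 3275 and 1927 genes, 22 and 6 pathway genes, 11 and 4 probes and a median of 0.41. Spots well above background in all rats gave 12 and 1 members, 2223 and 880 genes, 17 and 4 pathway genes, 14 and 2 probes and a median of 0.52. A foreground of at least 3 times background gave 1 member, 2828 genes, 10 pathway genes and 4 probes lower. Without a filter on valid spots limma called 0 members, 0 genes, 0 pathway genes and 0 probes in either direction, with 16 members and 9211 genes at an unadjusted p under 0.05. The methods' t-test after Benjamini-Hochberg adjustment likewise gave 0 throughout, with 9 members and 6103 genes at an unadjusted p under 0.05. The cause of these shifts was not tested.

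Leaving out each rat in turn gave 0 to 8 members higher and 2 to 6 lower, 257 to 1855 and 914 to 7012 genes, 3 to 12 and 2 to 20 pathway genes, 0 to 8 and 3 to 10 probes, and a median member difference of -0.02 to 0.15, or 0.25 to 0.37 relative to all genes. With the replicate number as a block 3 members were higher and 6 lower, and Syt3 was the only member whose call changed. No called member changed sign in any alternative run. Of 24 alternatives Syt4 was called in 21, Amph in 17, Syn2 in 16, Syt1 in 15, Dnm2 in 13, Syt3 in 11, and Rims2 and Cltb in 8 each, while Sv2c was called in 19 of 21 and Unc13b in 14 of 22. Signal over background limits Sv2c, Unc13b, Syt7 and Rims1, which were not well above background in every rat.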
